A study of Homo sapiens with 12 samples.

Results

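The lid of the 19S regulatory particle was examined through the 8 genes PSMD3, PSMD6, PSMD7, PSMD8, PSMD11, PSMD12, PSMD13 and PSMD14, which were taken by name from the 58676 genes of the deposited table. All 8 were found, and all 8 had a mean FPKM of at least 1 and entered the tests, which covered 12194 genes. The libraries came from A549, an established line of human lung carcinoma cells. A control line (genotype label Control1) was set against 2 lines labelled as NFE2L1 knockouts, called KO1 and KO2 here, and each line received DMSO vehicle or bortezomib at 200 nM for 4 h. Each of the 6 groups had 2 libraries. The labels do not say how the lines were made, whether each is 1 clone, or whether the libraries of a group came from separate cultures, so p-values measure the spread between these libraries, which may be technical. A single control line stands behind every knockout comparison, so a difference between lines cannot be told apart from a difference due to NFE2L1.

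The 26S proteasome degrades ubiquitin-tagged proteins. Its 20S core holds the proteolytic sites, and the 19S particle that caps it consists of a base, with a ring of ATPases that unfold substrates, and a lid. In the lid, PSMD14 is the metalloprotease that cuts ubiquitin chains from substrates as they are drawn in, and PSMD7 is its partner without catalytic activity; both carry an MPN domain. PSMD3, PSMD6, PSMD8, PSMD11, PSMD12 and PSMD13 carry PCI domains and build the horseshoe scaffold, with PSMD11 also touching the core and PSMD8 joining late in lid assembly. SEM1 is the remaining, very small subunit. Bortezomib blocks the chymotrypsin-like site of the core. NFE2L1 is a membrane-bound transcription factor that is normally destroyed by the proteasome. When degradation is blocked it is deglycosylated by NGLY1, cut by DDI2, and acts in the nucleus with small MAF proteins on proteasome subunit genes through antioxidant response elements (AREs).

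These 8 genes moved together with bortezomib, and their promoters were searched for that element. RefSeq windows of 300 bases (GRCh38.p14, 250 before and 50 after the RefSeq start) were found for 8 of 8 members and read on both strands. The ARE core TGACNNNGC, in which N is any base, was present in 2 of 8 members, PSMD3 and PSMD12, and in 13.3% of all 35116 windows. Its looser form TGANNNNGC, of which every core match is also a match, was present in 5 of 8 (PSMD3, PSMD8, PSMD12, PSMD13 and PSMD14) and in 41.8% of windows. The CCAAT box was found in 5 of 8 and 34.6%, and the heat shock element pair GAANNTTC in 0 of 8 and 6.77%. A match is a run of letters and not a measured binding site, and RefSeq starts lay 10 to 516 bases from the starts in the deposited table. The 250 bases before the start are shown, 5′ to 3′ on the gene's strand, for both members with a core match and for PSMD7, the member with the smallest bortezomib response. Capitals mark matches to the core.
PSMD3 (chr17:39980557-39980806, plus strand): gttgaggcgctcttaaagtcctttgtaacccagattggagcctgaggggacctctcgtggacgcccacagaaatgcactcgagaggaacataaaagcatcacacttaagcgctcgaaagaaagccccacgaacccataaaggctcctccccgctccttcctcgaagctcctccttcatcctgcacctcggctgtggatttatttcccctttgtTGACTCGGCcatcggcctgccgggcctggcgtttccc
PSMD12 (chr17:67366578-67366827, minus strand): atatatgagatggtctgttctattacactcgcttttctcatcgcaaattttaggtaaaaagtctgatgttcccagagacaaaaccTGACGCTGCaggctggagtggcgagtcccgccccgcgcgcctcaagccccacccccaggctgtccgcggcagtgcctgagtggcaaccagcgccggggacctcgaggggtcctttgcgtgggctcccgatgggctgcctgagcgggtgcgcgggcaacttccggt
PSMD7 (chr16:74296564-74296813, plus strand): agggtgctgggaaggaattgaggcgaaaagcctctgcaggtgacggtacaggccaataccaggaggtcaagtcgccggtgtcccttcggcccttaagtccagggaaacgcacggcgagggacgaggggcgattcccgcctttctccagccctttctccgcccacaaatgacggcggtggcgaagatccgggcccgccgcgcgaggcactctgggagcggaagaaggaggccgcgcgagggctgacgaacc
PSMD3 held a second core match, GCTCCGTCA on the reverse strand at window base 284, just after the start, and its first, TGACTCGGC, began at window base 214. The match in PSMD12, TGACGCTGC, began at window base 86. PSMD6, PSMD7 and PSMD11 held no match to either form. Fitted bortezomib responses on the log2(FPKM + 1) scale were 0.96 for PSMD12, 0.86 for PSMD6, 0.85 for PSMD14 and 0.82 for PSMD11. They were 0.76 for PSMD13, 0.53 for PSMD8, 0.50 for PSMD3 and 0.25 for PSMD7. Several neighbours in this order were nearly level. Whether a match goes with the response was not tested.

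The libraries held 13211608 to 23819258 reads assigned to genes, and the 8 members 470 to 7965 reads each per library. The 6 libraries with the title suffix R2 stood apart: mitochondrial genes took 12.3% to 19.3% of their reads, against 5.44% to 6.80% in the other 6. The other 6 carry R1 in the KO lines and no suffix in the control line, and are called the first set here; the labels do not say that R1 and unnumbered libraries belong together. Lid genes were lower in R2 than in the first set of the same group in 47 of 48 comparisons, the exception being PSMD3 in control vehicle, at 108% of its partner. Median R2 levels of the 8 members were 45.5% to 63.2% of the first set, while the median over all tested genes fell by 0.20 on the log2 scale. Whether the replicate set reflects cells, RNA or library making was not tested. The R2 suffix is therefore used to pair libraries, and each test is given without and with a term for the replicate suffix, called the replicate block. NFE2L1 itself had 72.7 and 151 FPKM in control vehicle, 8.45 and 14.8 in KO1 vehicle and 18.6 and 33.6 in KO2 vehicle (first set, then R2), so residual reads remained in both lines labelled knockout. A549 and epithelial markers were present (KRT7 222 to 755 FPKM, AKR1B10 545 to 1597, EPCAM 1.25 to 10.6). Of 6 markers of leukocytes, endothelium and fibroblasts, 5 (PTPRC, CD3E, PECAM1, VWF and DCN) stayed at or below 0.0602 FPKM. COL1A1 was the exception, at 1.42 to 5.18 FPKM with vehicle and 6.10 to 23.3 with bortezomib; its part in the results was not tested.

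By FPKM, which divides reads by the listed gene length, the scaffold subunits PSMD8 and PSMD3 ranked highest of the lid and PSMD6 and PSMD14 lowest. The listed lengths were 2740 bases for PSMD7 and 3105 for PSMD8, against 7698 for PSMD14 and 9123 for PSMD6. How far the order depends on these lengths was not tested. Over the 12 libraries mean FPKM was 66.3 for PSMD8, 64.2 for PSMD3, 37.0 for PSMD11, 31.7 for PSMD12, 22.4 for PSMD13, 18.3 for PSMD7, 14.3 for PSMD14 and 10.0 for PSMD6. The order held in 12 of 12 libraries for PSMD3 over PSMD11 and for PSMD12 over PSMD13, and in 11 for PSMD11 over PSMD12, while the other neighbours changed places in 2 to 6 libraries. PSMD8 ranked highest in 6 libraries and PSMD3 in the other 6, and PSMD11 and PSMD12 shared ranks 3 and 4. PSMD6 ranked lowest in 10 libraries and PSMD14 in 2. The catalytic subunit PSMD14 and its partner PSMD7 had overlapping levels, PSMD7 at 10.5 to 24.9 FPKM and PSMD14 at 3.29 to 36.4. By FPKM PSMD7 was the higher in 10 of 12 libraries. In reads, not divided by length, PSMD7 had 534 to 1305 per library, PSMD14 470 to 3939 and PSMD6 618 to 2756. SEM1, listed under its older symbol SHFM1 and matched by gene ID, had 1.61 to 4.54 FPKM over a listed gene length of 11490 bases.

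**Figure D1:**
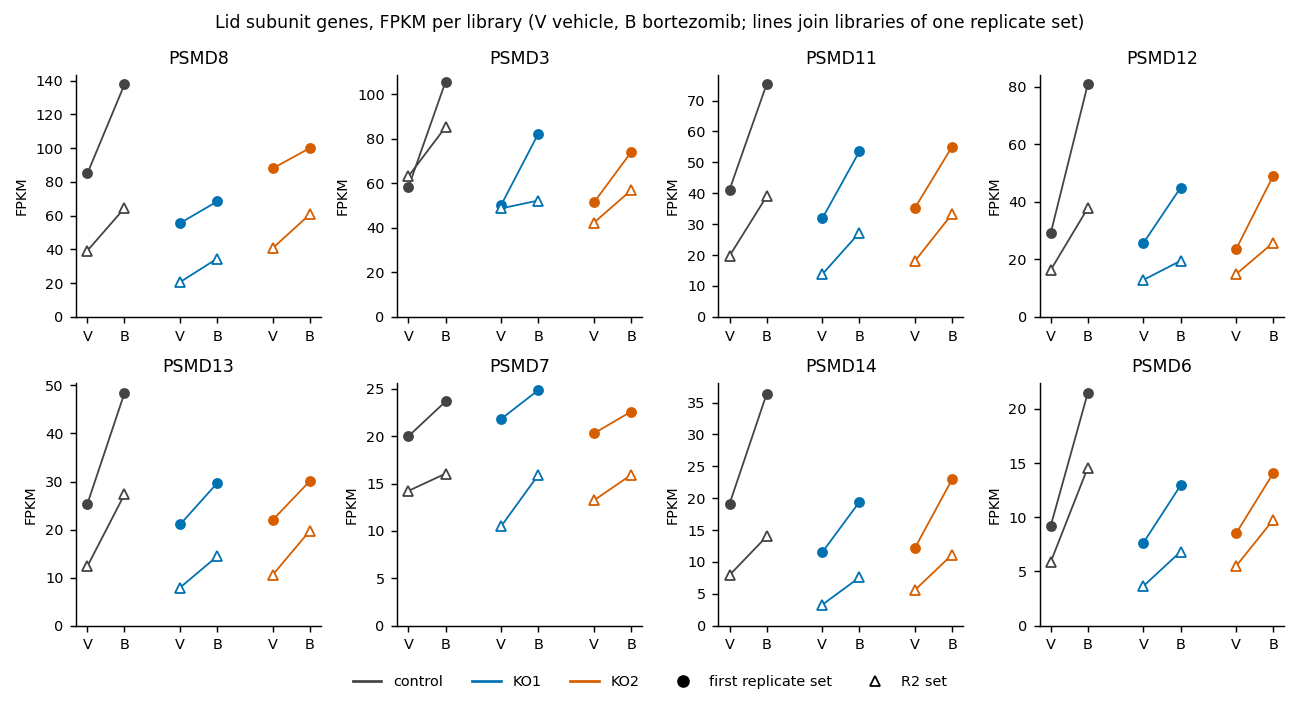
FPKM of the 8 lid genes in each of the 12 libraries, one panel per gene and a linear axis from 0; circles are the first replicate set, open triangles the R2 set, and lines join the vehicle (V) and bortezomib (B) libraries of one line and set. All 48 lines rise, and the triangles lie below the circles in every group but PSMD3 in control vehicle.

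Bortezomib and vehicle libraries were compared line by line, which asks how the lid genes respond when the proteasome is blocked. All 8 lid genes were higher with bortezomib in all 3 lines and both replicate sets, that is in 48 of 48 differences between libraries with the same line and suffix. The share of all tested genes that rose in every pair was not counted. The fitted mean of the 3 lines was between 1.19-fold for PSMD7 and 1.94-fold for PSMD12. With the replicate block all 8 passed the test, against 27.0% of tested genes that were called higher. Without it 0 of 8 passed, against 4.85% of tested genes called higher, and 3 had an unadjusted p under 0.05. In bulk RNA, more transcript per cell and more cells with the transcript cannot be told apart.

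Among the MPN subunits the deubiquitinase PSMD14 had a larger fitted rise than its partner PSMD7, a difference that was not tested. In the control line PSMD14 went from 19.1 to 36.4 FPKM in the first set and from 7.94 to 14.0 in R2. In KO1 it went from 11.5 to 19.4 and from 3.29 to 7.56, and in KO2 from 12.2 to 23.0 and from 5.61 to 11.2. The 2 vehicle and 2 bortezomib libraries overlapped in each line, with R2 bortezomib below first-set vehicle. The fitted mean response of PSMD14 was 0.85 on the log2(FPKM + 1) scale (SE 0.42, limma adjusted p 0.234; with the replicate block SE 0.095, adjusted p 0.000101). PSMD7 responded least of the 8. It went from 19.995 to 23.7 and from 14.2 to 16.0 FPKM in the control line, from 21.8 to 24.9 and from 10.5 to 15.9 in KO1, and from 20.3 to 22.6 and from 13.2 to 15.9 in KO2 (first set, then R2). Its fitted mean was 0.25 (SE 0.26, limma adjusted p 0.597; with the block SE 0.089, adjusted p 0.0356), and that call was lost in 10 of 12 fits with the block that left out 1 library; it was kept without the R1 library of KO1 vehicle and without that of KO2 bortezomib.

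Of the PCI subunits, PSMD12 and PSMD6 had the highest responses. PSMD12 went from 29.045 to 80.8 FPKM in the first set of the control line, the widest rise of any lid gene (2.78-fold), and from 16.3 to 37.8 in R2. Its rises in KO1 were from 25.7 to 44.9 and from 12.9 to 19.5, and in KO2 from 23.6 to 49.1 and from 14.9 to 25.8. The bortezomib and vehicle libraries of PSMD12 did not overlap in the control line or KO2. The fitted mean of PSMD12 was 0.96 (SE 0.35, limma adjusted p 0.110; with the block SE 0.093, adjusted p 4.55e-05). PSMD6 went from 9.19 to 21.5 and from 5.87 to 14.6 FPKM in the control line, from 7.65 to 12.9 and from 3.65 to 6.82 in KO1, and from 8.53 to 14.1 and from 5.50 to 9.77 in KO2. It was the lid gene with the smallest p without the block, at a fitted mean of 0.86 (SE 0.26, limma adjusted p 0.0590; with the block SE 0.084, adjusted p 4.76e-05). Without the block PSMD6 passed after quantile normalization (limma adjusted p 0.0205), after leaving out mitochondrial genes (0.0299), and without the R1 library of KO1 vehicle (0.0437).

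PSMD11, the subunit that also contacts the core, and PSMD13 followed. PSMD11 went from 41.2 to 75.3 and from 19.8 to 39.0 FPKM in the control line, from 31.8 to 53.5 and from 13.8 to 27.3 in KO1, and from 35.3 to 55.1 and from 18.1 to 33.3 in KO2. Its fitted mean was 0.82 (SE 0.36, limma adjusted p 0.175; with the block SE 0.085, adjusted p 6.44e-05). PSMD13 went from 25.3 to 48.4 and from 12.4 to 27.3 FPKM in the control line, from 21.1 to 29.7 and from 7.93 to 14.4 in KO1, and from 22.0 to 30.1 and from 10.6 to 19.8 in KO2. Its fitted mean was 0.76 (SE 0.35, limma adjusted p 0.204; with the block SE 0.10, adjusted p 0.000277). Some reads of lid genes could belong to overlapping genes. PSMD14 overlaps the rRNA pseudogene RNA5SP108 on the same strand (0.397 to 5.45 FPKM). The position of PSMD13 in the table overlaps SIRT3 (2.84 to 5.13 FPKM) and the pseudogene AC136475.10 (1.31 to 15.2 FPKM) on the opposite strand. Whether reads were counted by strand is not given in the sources used here.

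PSMD8 and PSMD3, which ranked highest by FPKM, had smaller fitted responses than the other lid genes except PSMD7. Whether level goes with response was not tested. PSMD8 went from 85.0 to 138 and from 39.2 to 64.4 FPKM in the control line, from 55.6 to 68.4 and from 20.6 to 34.6 in KO1, and from 88.0 to 100.1 and from 40.8 to 60.9 in KO2. Its fitted mean was 0.53 (SE 0.40, limma adjusted p 0.452; with the block SE 0.10, adjusted p 0.00191). PSMD3 went from 58.3 to 106 and from 63.1 to 85.2 FPKM in the control line, from 50.3 to 82.2 and from 48.7 to 52.2 in KO1, and from 51.4 to 73.9 and from 42.3 to 56.8 in KO2. R2 libraries had 63.5% to 108% of the PSMD3 level of the first set, and the bortezomib and vehicle libraries did not overlap in any of the 3 lines. Its fitted mean was 0.50 (SE 0.23, limma adjusted p 0.195; with the block SE 0.10, adjusted p 0.00295). Of the pseudogenes of lid genes in the table, PSMD8P1 reached 0.140 FPKM, and PSMD12P and PSMD7P1 were listed at 0.

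**Figure D2:**
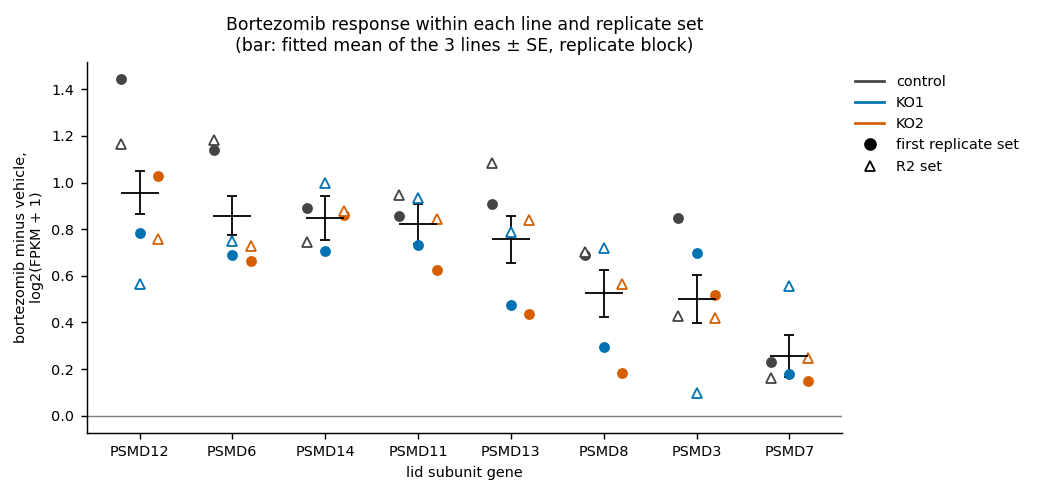
Bortezomib minus vehicle on the log2(FPKM + 1) scale for each lid gene, 1 point per line (colour) and replicate set (circle for the first set, open triangle for R2), with the fitted mean of the 3 lines ± SE from the replicate-block fit. All 48 points are above 0; PSMD12 in the first set of the control line is the highest and PSMD3 in R2 of KO1 the lowest.

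Within single lines the median response of the 8 lid genes was 0.86, 0.65 and 0.67 for control, KO1 and KO2. With the replicate block 7 of 8 were called higher in the control line (not PSMD7), against 16.1% of tested genes. In KO1 and in KO2 it was 5 of 8, against 13.9% and 12.7%; the 5 were PSMD6, PSMD11, PSMD12, PSMD13 and PSMD14 in both lines. Counted over unpaired libraries, bortezomib and vehicle did not overlap for 4, 1 and 3 of 8 members in control, KO1 and KO2, against 16.9%, 12.6% and 15.8% of tested genes. Without the block 0 of 8 passed in each line by limma, against 0.23%, 0.156% and 0.172% of tested genes called higher. At an unadjusted p under 0.05 there were 1, 0 and 0 members (the 1 being PSMD6), with no share of all genes set beside them. The blocked counts depend on single libraries. Leaving out any 1 of the 4 control libraries left 4 of 8 in the control line. In KO1 the count was 1 without its R1 bortezomib library and 2 without its R2 vehicle library, where PSMD6, PSMD12 and PSMD13 were lost in both cases. In KO2 it was 0 without its R1 vehicle library, 1 without its R2 bortezomib library and 3 without its R2 vehicle library.

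The KO lines were next compared with the control line in vehicle, which asks about lid transcripts when the proteasome is not inhibited. Lid genes were mostly lower in the KO lines, with 28 of 32 differences between libraries of 1 replicate set below 0, and 6 of 8 genes lower in all 4 pairs of libraries. Each line shares the same 2 control libraries, so the 2 comparisons are not independent. How many of all tested genes were lower in all 4 pairs was not counted. PSMD14 was lowest relative to control in 3 of 4 pairs (PSMD3 in R2 of KO2, at 67.0%): KO1 had 60.3% of the control FPKM in the first set and 41.4% in R2, and KO2 had 63.9% and 70.7%. Over the 8 genes the median was 83.2% (first set) and 67.1% (R2) in KO1, and for KO2 it was 87.6% and 91.5%.

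With the replicate block PSMD14 was the single lid gene called in KO1 vehicle, against 2.85% of tested genes called lower. Its log2 difference was -0.85 (SE 0.19, limma adjusted p 0.0361), compared with -0.87 (SE 0.73, adjusted p 1) without the block. The call was lost when any of 9 of the 12 libraries was left out, that is any but the R1 library of KO1 vehicle and the 2 of KO2 bortezomib. In KO2 vehicle 0 of 8 passed by limma with the block, against 2.25% called lower, and 2 had an unadjusted p under 0.05 (PSMD3 and PSMD14). For the mean of both KO lines it was also 0 of 8 (2 unadjusted), against 2.76%, with PSMD14 at -0.67 (SE 0.17, limma adjusted p 0.0567).

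When the block treated unnumbered control libraries as R1, PSMD14 (limma adjusted p 0.0097) and PSMD8 (0.0234) were both called lower in KO1 vehicle, against 4.08% of tested genes, and PSMD14 for the mean of both KO lines (-0.70, SE 0.14, limma adjusted p 0.0129), against 3.77%. KO2 vehicle stayed at 0 of 8 (1 unadjusted), against 2.16%. This placement matters because R1 occurs in KO groups alone and the unnumbered level in control groups alone, so that KO and control lines are linked chiefly by R2 in the block by suffix. Without a block 0 of 8 passed by limma in KO1, in KO2 and for their mean (0 unadjusted in each). Of tested genes, limma called 0.123%, 0.0984% and 0.172% lower. By voom on the recovered reads it was also 0 of 8 in each, with no share of all genes set beside it.

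PSMD8, the subunit that joins the lid late, was lower in KO1 than in KO2. In vehicle KO1 had 65.4% of the control PSMD8 level in the first set and 52.6% in R2, whereas KO2 had 104% in both. KO1 minus KO2 was -0.80 on the log2 scale (SE 0.69, limma adjusted p 1; with the replicate block SE 0.17, adjusted p 0.0445), a contrast examined for this gene after its values were seen. Of tested genes, 0.0492% were lower in KO1 than in KO2 without the block and 1.59% with it. The blocked call on PSMD8 held in 3 of 12 fits that left out 1 library, with adjusted p-values from limma of 0.0332 to 0.336, and missed the threshold with quantile normalization (0.0632).

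**Figure D3:**
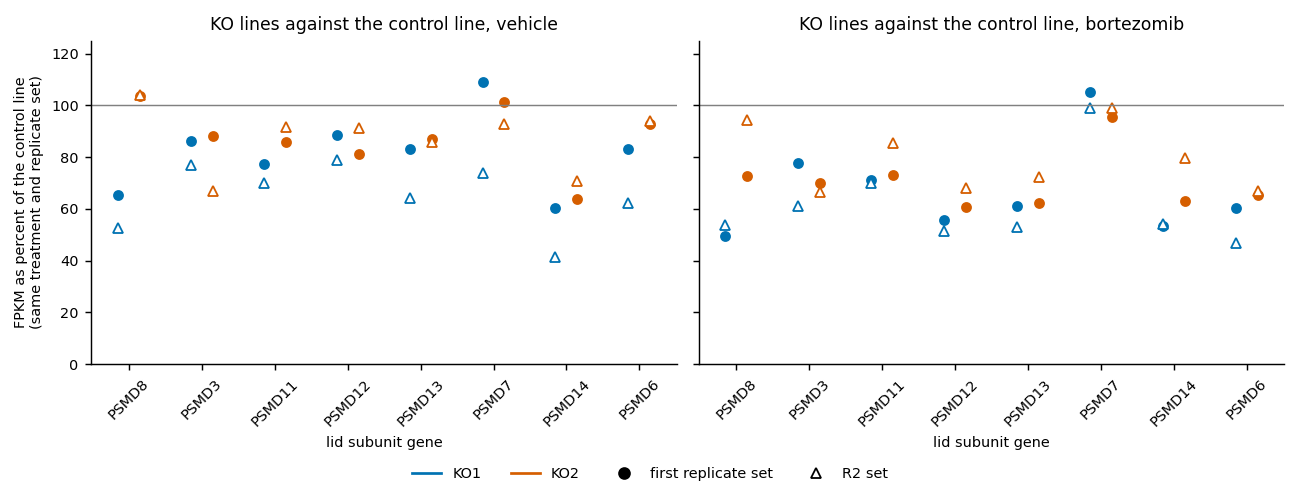
Level of each lid gene in KO1 and KO2 as a percentage of the control line with the same treatment and replicate set (vehicle on the left, bortezomib on the right; circles for the first set, open triangles for R2; the line marks 100%). In bortezomib 31 of 32 points lie below 100%, and PSMD7 sits near the line with values of 95.5% to 105%.

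With bortezomib the KO lines were again compared with the control line, which asks about lid transcript levels when the proteasome is blocked. A difference already present in vehicle is part of this comparison, so it does not measure the rise itself. Here 31 of 32 differences were below 0, and 7 of 8 lid genes were lower in all 4 pairs, PSMD7 being the exception. The KO lines again share the same control libraries, and the share of all tested genes lower in all 4 pairs was not counted. PSMD12 stood at 55.5% (first set) and 51.6% (R2) of the control line in KO1 and at 60.7% and 68.3% in KO2. PSMD6 stood at 60.2% and 46.8% in KO1 and at 65.6% and 67.0% in KO2, with both libraries of each KO line below both control libraries. PSMD3, at 77.9% and 61.3% in KO1 and 70.0% and 66.7% in KO2, was the other member without overlap. That makes 2 of 8 members in each KO line, against 11.9% of tested genes in KO1 and 10.1% in KO2.

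PSMD13 had 61.3% and 52.8% of the control level in KO1 and 62.2% and 72.4% in KO2. PSMD14 had 53.4% and 54.0% in KO1 and 63.2% and 79.7% in KO2. PSMD11 was nearer the control line, at 71.1% and 69.9% in KO1 and 73.2% and 85.5% in KO2. PSMD8 was again lower in KO1 (49.7% and 53.7%) than in KO2 (72.7% and 94.4%).

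For the mean of both KO lines in bortezomib, the replicate block called 2 of 8 lid genes lower, against 3.76% of tested genes. They were PSMD6 (-0.77, SE 0.155, limma adjusted p 0.0206) and PSMD12 (-0.74, SE 0.17, adjusted p 0.0342). At an unadjusted p under 0.05 there were 7 of 8, a count that the 3.76% does not match and that has no share of all genes beside it. Treating unnumbered libraries as R1 gave 5 of 8 (PSMD6, PSMD8, PSMD12, PSMD13 and PSMD14), against 6.06%. Without a block 0 of 8 passed by limma (0 unadjusted), against 0.0902% of tested genes called lower by limma. By voom it was also 0 of 8, with no share of all genes set beside it. Leaving out any 1 of the 4 control libraries, or the R2 library of KO1 bortezomib, left 0 calls in the block by suffix, and leaving out either KO1 vehicle library gave 5.

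Set against the untreated control line, lid genes of the bortezomib-treated KO lines were mostly higher, with 27 of 32 differences above 0 and 5 of 8 genes higher in all 4 pairs (PSMD6, PSMD7, PSMD11, PSMD12 and PSMD13). PSMD12 reached 155% and 120% of control vehicle in KO1 and 169% and 158% in KO2. PSMD8 in KO1 stayed below it, at 80.5% and 88.1%. PSMD3 lay above control vehicle in the first set (141% in KO1, 127% in KO2) and below it in R2 (82.7% and 90.0%). No test was made of this pairing of groups, and the share of all tested genes higher in all 4 pairs was not counted.

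The interaction tested whether KO and control lines responded unequally to bortezomib. The response in the KO lines minus that in the control line was -0.52 for PSMD12 (SE 0.74, limma adjusted p 1; with the block SE 0.20, adjusted p 0.380) and -0.45 for PSMD6 (SE 0.54, adjusted p 1; with the block SE 0.18, adjusted p 0.402). The value was below 0 in 4 of 4 pairs for 5 of 8 members (PSMD3, PSMD6, PSMD11, PSMD12 and PSMD13). Both KO lines are set against the same control response in each set, so the 4 pairs are not independent. Some values were very small, such as -0.009 for PSMD3 (KO2, R2) and -0.014 for PSMD11 (KO1, R2). The share of all tested genes below 0 in all 4 pairs was not counted. The pairs gave PSMD12 at -0.66 and -0.60 in KO1 and -0.42 and -0.41 in KO2, and PSMD6 at -0.45 and -0.43 in KO1 and -0.48 and -0.45 in KO2 (first set, then R2). PSMD13 was at -0.36, PSMD8 at -0.26, PSMD3 at -0.20, PSMD11 at -0.12, PSMD14 at 0.04 and PSMD7 at 0.09. None of the 8 passed by limma, without the block (0 unadjusted) or with it (2 unadjusted, PSMD6 and PSMD12), nor by voom on recovered reads. Over all tested genes 0% were called lower in both fits, with 115 and 1305 genes at an unadjusted p under 0.05. Over all genes, 2 other fits did make calls: voom with the block called 74 genes lower and 39 higher, and limma without a filter on low values 5 lower and 2 higher, with 0 of 8 lid genes called in either. The first set and R2 gave unequal values, the median over the 8 genes being -0.292 (KO1) and -0.375 (KO2) in the first set against -0.155 and -0.119 in R2.

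The lid response to bortezomib was set beside that of the other parts of the proteasome and of related complexes, in the mean of the 3 lines. The median log2 difference was 0.79 for the 8 lid genes, 0.76 for the 6 ATPases, 0.57 for the 4 other subunits of the base and 0.42 for the 12 tested of 14 core subunits, against -0.01 over all tested genes. With the replicate block 6 of 6 ATPases rose, from 0.46 for PSMC1 to 1.04 for PSMC6, which was also called without the block (limma adjusted p 0.0293). In the base 3 of 4 rose (PSMD2 the most, 0.69), and the ubiquitin receptor ADRM1 was at 0.21 (limma adjusted p 0.0563). In the core 11 of 12 rose, up to 0.81 for PSMB4, with PSMA7 at 0.21 (limma adjusted p 0.0926); the target of bortezomib, PSMB5, rose by 0.36. The 9th lid subunit, SEM1, was at 0.03 (SE 0.28, limma adjusted p 0.964; with the block 0.835), with 4.54 and 2.15 FPKM in control vehicle and 3.53 and 3.02 in control bortezomib. Differences between lists were not tested.

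Of the 7 tested of 9 assembly chaperones, PSMG2 rose (0.28) and PSMG3 fell (-0.58) with the block, and the median was -0.12. The COP9 signalosome and eIF3 are built from the same PCI and MPN folds as the lid. In COP9, which removes NEDD8 from cullins, 1 of 9 genes rose with the block (COPS2, 0.83) and the median was 0.10. In the PCI and MPN subunits of the translation factor eIF3, 5 of 8 rose, up to 0.70 for EIF3E, with a median of 0.40. Over all tested genes 27.0% were called higher with the block and 4.85% without it. Of the 7 genes of the NFE2L1 pathway 6 rose with the block and 3 without it. MAFF was the highest at 2.00 (limma adjusted p 0.000107 without the block), followed by MAFK at 1.04 (0.0248) and MAFG at 0.93 (0.0275). NFE2L1, NFE2L2 and NGLY1 rose with the block alone, by 0.87, 0.56 and 0.30. For NFE2L1 the blocked values by line were 1.39 in KO1 (limma adjusted p 0.0006), 0.76 in KO2 (0.00906) and 0.45 in the control line (0.0578, not called). The protease gene DDI2 was at -0.02.

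**Figure D4:**
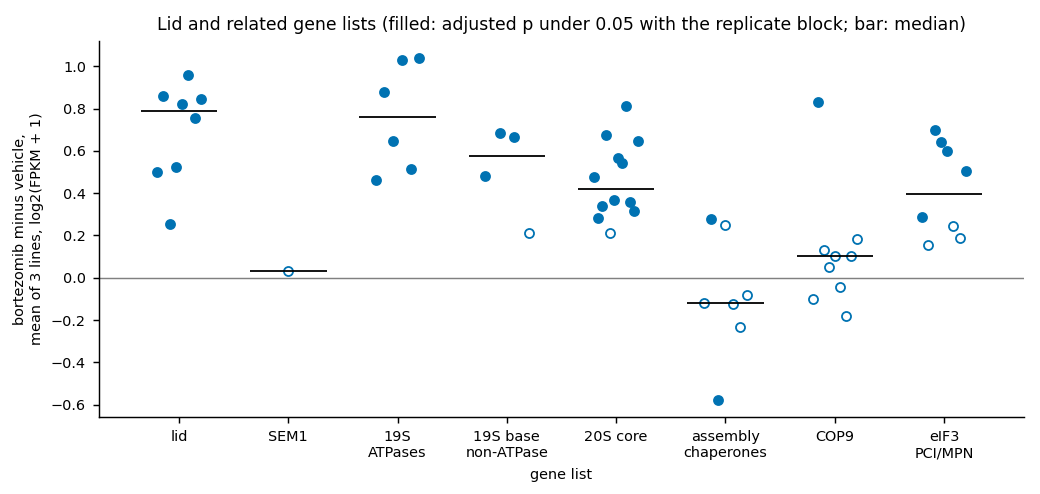
Fitted bortezomib response (mean of the 3 lines, log2(FPKM + 1) scale) of each tested gene in the lid and in related lists; filled points have an adjusted p under 0.05 with the replicate block and bars are list medians. The lid and ATPase medians lie highest (0.79 and 0.76), SEM1 and most COP9 and chaperone genes lie near 0, and PSMG3 is lowest.

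How closely the lid genes followed each other was described over the 12 libraries, after centring each gene within the R2 and within the other libraries. These libraries share lines, treatments and replicate sets, and the values carry no test. Pearson's r of each gene with the mean of the other 7 was 0.991 for PSMD6, 0.984 for PSMD13, 0.976 for PSMD11, 0.972 for PSMD14, 0.955 for PSMD12, 0.846 for PSMD3, 0.834 for PSMD8 and 0.759 for PSMD7. PSMD7, PSMD8 and PSMD3 were also least like each other (0.584 to 0.615), and PSMD6 with PSMD13 was the closest pair (0.986). Genes outside the lid that were among the most like its mean were PSMC3 (0.979), LIMS1, SLC4A1AP, PLEKHO2, KIF7, PELO, C10orf35, PLXNB3 and FLNC (0.974). Of the 23 other proteasome subunit genes among the 12194 tested, 1 was in the first 10 and 6 in the first 50. The median r with the lid mean was 0.954 for the ATPases, 0.906 for the rest of the base, 0.883 for the core, 0.677 for eIF3, 0.543 for COP9 and -0.14 for the assembly chaperones, and -0.02 over all tested genes; SEM1 was at 0.343.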

How the data were processed

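RNA-seq of 12 A549 libraries was used. The authors deposited FPKM values for 58676 genes, 1 column per library; per the submitters' processing notes CASAVA, STAR 2.5, HTSeq 0.6.1, DESeq2 and hg19 were named, with no role given. The deposited positions match GENCODE 29 (GRCh38) for 95.2% of gene IDs, so the build behind the counts is uncertain. Per the deposited values, FPKM times gene length came out as whole reads for 100% of values (within 0.1 of a read), which gave depths of 13211608 to 23819258 assigned reads. Depth limits counting error only, and not the spread between libraries.

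Tests used limma 3.58.1 (R 4.3.3; eBayes with trend) on log2(FPKM + 1) of all 12 libraries together, for genes whose mean FPKM was 1 or more, with Benjamini-Hochberg adjusted p under 0.05. A pseudocount of 1 understates changes of low genes. Shares of tested genes beside counts of calls refer to an adjusted p under 0.05. Counts of members at an unadjusted p carry no figure for all genes, except in the interaction. The replicate block used the title suffix (none, R1 or R2). It pairs the libraries: R2 minus first-set differences correlated between groups in all 15 pairs of groups (r 0.696 to 0.890, across genes, which are not independent replicates). Alternatives were other pseudocounts, filters and scalings, voom on recovered reads, and leaving out each library. All 8 members are named, other lists by their extremes, and similar genes are taken from the 10 with the highest r, not all of which are reported here; genes named beyond this were chosen after their values were seen. Members and lists were chosen with earlier results of these data known. Sequences are RefSeq promoters (GRCh38.p14). Proteins were not used here. Python 3.11.15, pandas 2.3.3 and numpy 2.4.6 were used.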

Additional observations from a re-analysis of the deposited data

Results flagged for a closer look

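PSMD8 in vehicle lay below the control line in KO1 and slightly above it in KO2, in both replicate sets of each. Its mean log2 difference from the control line was -0.749 in KO1 and 0.052 in KO2. The KO2 value was small beside its error (SE 0.69, and 0.20 with the replicate block), and KO1 against control was not called in the block by suffix (limma adjusted p 0.0746). With unnumbered libraries treated as R1, KO1 against control was called (limma adjusted p 0.0234), as it was by voom with the block. The blocked fits with quantile normalization or without mitochondrial genes did not call it. The difference between KO1 and KO2 passed the limma test with the replicate block (adjusted p 0.0445) and not without it (adjusted p 1), and was examined after the values were seen. That call was lost in most fits that left out 1 library, and with quantile normalization and the block (limma adjusted p 0.0632).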

How the results depend on the processing

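Without a block, the 6 other pseudocounts, filters and scalings and voom left the count of lid genes called at 0 in all 9 comparisons, except that the mean bortezomib response had 1 (PSMD6) with quantile normalization, 1 (PSMD6) with mitochondrial genes left out, and 0 to 1 when 1 library was left out. The 5 fits with the replicate block (by suffix, unnumbered treated as R1, voom, quantile normalization, mitochondrial genes left out, in this order) gave 8, 8, 8, 8 and 8 for the mean bortezomib response, 7, 7, 7, 7 and 7 in the control line, 5, 6, 6, 5 and 5 in KO1 and 5, 5, 6, 6 and 5 in KO2. For the KO lines they gave 1, 2, 2, 2 and 1 in KO1 vehicle and 0, 1, 1, 1 and 0 for the KO mean in vehicle. For the KO mean in bortezomib they gave 2, 5, 6, 4 and 2. KO2 vehicle and the interaction stayed at 0. Shares of all tested genes are given above for the block by suffix and, in KO comparisons, for unnumbered treated as R1. Apart from the interaction, counts from the other alternatives have no share beside them. Whether they follow more calls over all genes cannot be read from them. With the block by suffix and 1 library left out, the counts were 7 to 8 for the mean response, 4 to 7 in the control line, 1 to 7 in KO1, 0 to 5 in KO2 (3 without KO2 vehicle R2), 0 to 2 in KO1 vehicle, 0 to 1 for the KO mean in vehicle (1 without the R1 library of KO1 vehicle) and 0 to 5 for the KO mean in bortezomib. Under the alternatives that kept all 12 libraries, the median lid differences kept their direction and moved by less than 0.604, the replicate SD. That SD holds the offset of the R2 set and is wider than several of the medians, so it is a loose measure of stability. The medians ranged from -0.244 to -0.143 in KO2 vehicle, -0.353 to -0.259 for the KO mean in vehicle and -0.310 to -0.203 for the interaction.

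Without the block, leaving out 1 library reversed some KO differences, whose replicate sets are then unbalanced. The median lid difference ranged from -0.923 to 0.099 in KO1 vehicle, -0.550 to 0.220 in KO2 vehicle (0.195 without the unnumbered control vehicle library), -0.711 to 0.157 for the KO mean in vehicle, and -0.684 to 0.210 for the interaction (0.163 and 0.028 without unnumbered control bortezomib or KO1 vehicle R1). For single genes in the KO mean in vehicle the ranges were PSMD6 -0.529 to 0.041, PSMD7 -0.338 to 0.157 (0.141 and 0.055 in other omissions), PSMD8 -0.896 to 0.199, PSMD11 -0.807 to 0.216, PSMD12 -0.625 to 0.173 (0.010) and PSMD13 -0.797 to 0.182 (0.019). In bortezomib they were PSMD7 -0.271 to 0.262 (0.149 and 0.115), PSMD11 -0.879 to 0.054 and PSMD14 -1.315 to 0.002. With the block no median reversed when 1 library was left out. A search of protein sequences was not run.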
